A study of Homo sapiens with 32 samples.

Results

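Keratins are the intermediate filament proteins of epithelial cells, and 10 of their genes were followed here across 4 human prostate cancer cell lines in which the COP9 signalosome subunit CSN5 was depleted or inhibited. The genes KRT4, KRT5, KRT7, KRT13, KRT14, KRT15, KRT17, KRT18, KRT19 and KRT75 were picked by symbol, as keratins of basal, stressed or stratified epithelium beside 2 luminal ones, from tables of up to 57445 genes. For the knockdown, cells of the lines LNCaP, PC3, C4-2 and 22Rv1 carried shCSN5, an shRNA against CSN5, or a scramble shRNA. In the inhibitor experiment the cells had CSN5i-3, a small-molecule CSN5 inhibitor, or DMSO; the dose was 5 µM in LNCaP and 22Rv1 and 10 µM in PC3. For C4-2 in that experiment, titles and descriptions give opposite treatments: libraries titled C5i are described as DMSO, and those titled NT as CSN5i-3 at 1 µM. They are therefore given as titled C5i against titled NT, with no treatment assigned. Each of the 16 groups held 2 libraries of cells bought from ATCC. Whether the 2 came from separate cultures is not stated, so the p values measure the spread between libraries, which may be technical. LNCaP is an androgen-sensitive line and C4-2 its castration-resistant derivative, 22Rv1 is a castration-resistant line with androgen receptor, and PC3 is an androgen-independent line.

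Keratins polymerise as pairs of a type I and a type II protein, and each epithelium uses its own pairs. In the prostate, luminal secretory cells carry KRT8 with KRT18 and KRT19, and the basal cells beneath them carry KRT5 with KRT14 or KRT15. KRT17 is induced in injured and inflamed skin, KRT75 belongs to the companion layer of the hair follicle, KRT7 is a type II keratin of ducts and glands, and KRT4 with KRT13 form the pair of non-keratinising stratified epithelium such as the oesophagus.

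The knockdown libraries held 20.6 to 32.5 M counts each and the inhibitor libraries 29.5 to 50.9 M. COPS5, which encodes CSN5, was lower in both shCSN5 libraries than in both scramble libraries of every line, by 4.50 ± 0.26 (SE) on the log2 scale in LNCaP and by 2.68 ± 0.11 in 22Rv1, the largest and the smallest of the 4 changes. Replicates did not agree equally well. The chi-square per gene between the 2 libraries of a group, about 1 under counting error alone, was 71.3 in LNCaP shCSN5 and 57.4 in 22Rv1 CSN5i-3, against 1.72 in PC3 DMSO. Where a value rests on 1 of these libraries, the value without it is given beside it. For replicate 2 of PC3 shCSN5 a label speaks of drug treatment, whereas title and description give shCSN5, which was used.

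Of the 10 genes, KRT4, KRT5, KRT7 and KRT75 are type II and the others type I. The type II genes and KRT18 lie on chromosome 12, and the other type I genes on chromosome 17. The identifiers in the files are ENSG00000171346.9 for KRT15, ENSG00000135480.10 for KRT7, ENSG00000170454.5 for KRT75, ENSG00000128422.11 for KRT17, ENSG00000111057.6 for KRT18 and ENSG00000171345.9 for KRT19. Of the 10 genes, KRT4, KRT5 and KRT75 had an entry in the RefSeq promoter table used, and a pair of these is shown as a contrast: KRT75, a type II keratin with many counts in PC3 and in LNCaP given CSN5i-3, and KRT5, the type II keratin that defines basal cells, which had few or no counts in the tables that list it. Each is the 250 bases before the RefSeq gene start in GRCh38.p14, 5′ to 3′ on the minus strand, chr12:52434372-52434621 for KRT75 and chr12:52520395-52520644 for KRT5. Capitals mark a match on either strand to GGGCGG, the GC box.
KRT75: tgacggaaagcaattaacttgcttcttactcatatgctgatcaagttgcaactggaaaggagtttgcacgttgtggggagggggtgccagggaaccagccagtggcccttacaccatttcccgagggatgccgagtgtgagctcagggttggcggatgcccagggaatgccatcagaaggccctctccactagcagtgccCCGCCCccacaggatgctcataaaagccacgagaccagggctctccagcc
KRT5: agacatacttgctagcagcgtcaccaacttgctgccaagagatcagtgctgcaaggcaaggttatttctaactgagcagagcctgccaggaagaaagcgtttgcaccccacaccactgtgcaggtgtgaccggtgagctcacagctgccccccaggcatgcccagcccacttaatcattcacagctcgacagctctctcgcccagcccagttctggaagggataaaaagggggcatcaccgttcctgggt
The 1 match was the GC box of KRT75, which begins 50 bases before the start. The same search for TGANTCA, the AP-1 motif, and for TATAAA, the TATA box, found no match in either window. Only these letters were searched, N being any base, so variants of a motif were not counted. Both windows hold ATAAAA, for example. Over all 35116 RefSeq windows of this length, 42.6% held the GC box, 6.57% the AP-1 motif and 10.7% the TATA box. A match describes these letters and shows no binding.

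Levels in scramble cells differed widely between lines. LNCaP and PC3 share one table and 22Rv1 and C4-2 another. Scramble levels were tested between lines within a table, in a fit that scaled its libraries together. The printed levels were scaled on the libraries of a single line and experiment. They are set side by side, and a log2 difference need not equal their ratio. KRT18 was highest in LNCaP and lowest in PC3. It had 217 and 282 CPM in PC3 libraries and 747 and 737 CPM in LNCaP libraries, a log2 difference of -1.67 ± 0.14 (edgeR adjusted p = 1.4e-05). CPM are counts per M of the scaled library total, and in bulk libraries fewer cells with a transcript and less of it per cell cannot be told apart. KRT19 ran in the opposite order, with 182 and 318 CPM in PC3, 83.8 and 66.4 CPM in 22Rv1, 9.73 and 14.1 CPM in C4-2 and 5.30 and 4.48 CPM in LNCaP scramble libraries. The ranges of these 4 lines did not overlap. In the tables that hold both lines, the KRT19 difference was 5.57 ± 0.42 for PC3 minus LNCaP (edgeR adjusted p = 6.5e-06) and 2.51 ± 0.20 for 22Rv1 minus C4-2 (adjusted p = 4.6e-06).

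KRT15, KRT7 and KRT75 were also highest in PC3 scramble cells. KRT15 had 8.83 and 11.8 CPM in PC3 and 0.780 and 0.516 CPM in 22Rv1, and no scramble library of C4-2 or LNCaP exceeded 0.0772 CPM, which is 2 counts. KRT7 had 16.5 and 25.7 CPM in PC3, 13.2 and 9.73 CPM in 22Rv1 and 0.128 and 0.382 CPM in LNCaP, with no count in either C4-2 library. PC3 and 22Rv1 were the neighbours with the closest KRT7 levels, and they were not tested against each other. KRT75 had 24.5 and 35.7 CPM in PC3, 0.347 and 0.335 CPM in C4-2 and 0.319 and 0.556 CPM in LNCaP. The ranges of C4-2 and LNCaP overlap, and 22Rv1 had no KRT75 count. PC3 minus LNCaP was 7.09 ± 0.33 for KRT15 (edgeR adjusted p = 4.3e-07), 6.27 ± 0.67 for KRT7 (adjusted p = 4.9e-05) and 6.01 ± 0.38 for KRT75 (adjusted p = 2.5e-06). KRT14 went the other way: both LNCaP libraries (0.351 and 0.313 CPM) and both C4-2 libraries (0.347 and 0.502 CPM) held some, while PC3 had none and 22Rv1 had 1 count. All 6 keratins tested were called in PC3 against LNCaP, where 76.2% of all genes tested were called, and all 6 in 22Rv1 against C4-2, where 69.8% were.

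Per kilobase of exon, a rough scale for comparing genes, KRT18 and KRT19 dominated among the 10 genes. LNCaP scramble cells had 231 CPM per kb of KRT18 and 2.09 of KRT19, and no other of the 10 genes reached 0.2 CPM per kb on average. PC3 scramble cells had 77.6 CPM per kb of KRT18, 107 of KRT19, 13 of KRT75, 5.15 of KRT7 and 1.46 of KRT15. KRT81, a keratin outside the 10, had 1507 and 2495 CPM in PC3 scramble libraries, against 217 and 282 CPM of KRT18. Lengths are the union of GENCODE v29 exons, 7069 bases for KRT15, 4093 for KRT7 and 2324 for KRT75. The longest coding transcript of KRT7 has 1754 bases and that of KRT75 2324. The union therefore sets KRT7 lower against KRT75 than transcript length would.

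**Figure D1:**
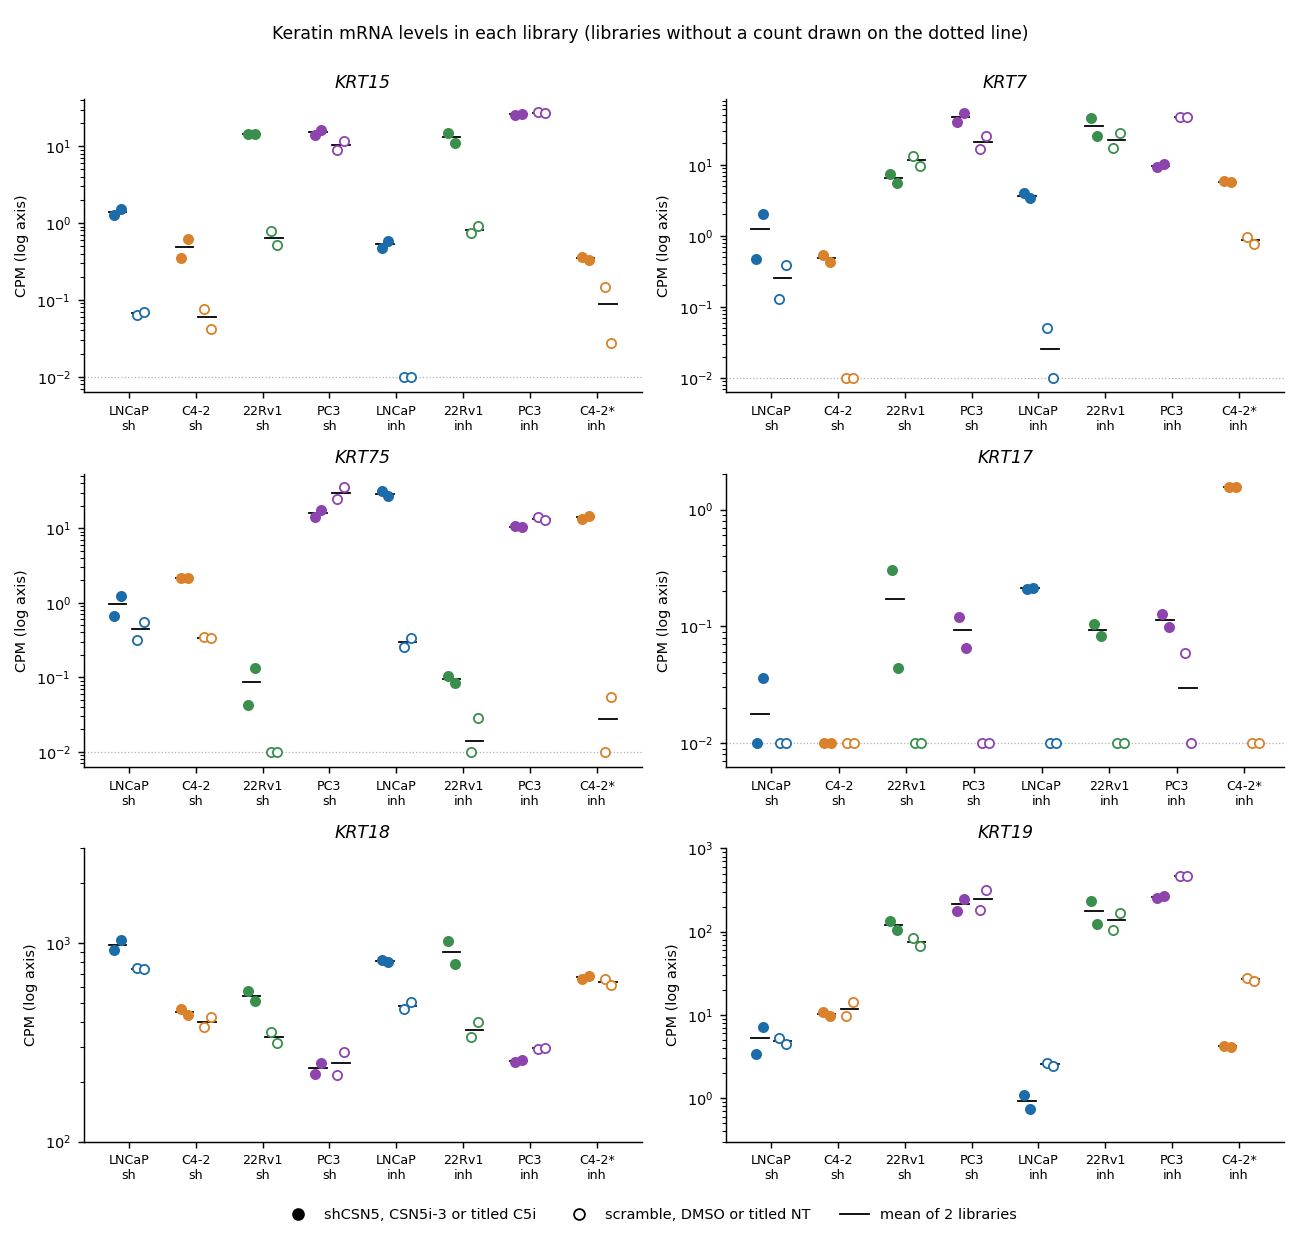
CPM of 6 keratins on log axes, in each library (points) with the mean of 2 (bar), by line in the knockdown (sh) and inhibitor (inh) experiments. Filled points are shCSN5, CSN5i-3 or titled C5i, open points scramble, DMSO or titled NT; C4-2* is the pair with conflicting labels, and libraries without a count sit on the dotted line at 0.01 CPM. KRT15 stands at 14.3 and 14.4 CPM in 22Rv1 shCSN5 libraries against 0.780 and 0.516 CPM with scramble, and KRT75 at 31.2 and 26.9 CPM in LNCaP CSN5i-3 libraries against 0.254 and 0.334 CPM with DMSO.

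Counts of called genes are read against how many genes changed in all. With shCSN5, 2 of 6 tested keratins were higher in LNCaP, where 35.7% of all genes were called and 18.3% were called higher. In C4-2, 2 of 5 were higher (32.0% of all genes called, 15.7% higher). In 22Rv1, 3 of 4 were higher and 1 lower (43.9% called, 22.6% higher, 21.3% lower). In PC3, 1 of 5 was higher and 1 lower (16.7% called, 10.3% higher, 6.41% lower). With CSN5i-3, 4 of 6 were higher and 2 lower in LNCaP (52.6% called, 26.2% higher, 26.5% lower), 3 of 5 were higher in 22Rv1 (24% called, 11.8% higher), and 4 of 5 were lower in PC3 (77.1% called, 38.5% lower). In C4-2, titled C5i against titled NT, 3 of 6 were higher and 2 lower (74.9% called, 37.0% higher, 37.9% lower). The rest of the 10 fell below the low-count filter, or, for KRT4, KRT5 and KRT13, had no row in the LNCaP and C4-2 inhibitor tables, where no gene has a maximum under 3 counts. A keratin near 0 in controls entered these tests through its treated libraries, so the counts describe the genes and do not test them as a list.

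KRT15, a type I keratin of basal cells, rose in LNCaP and 22Rv1 under both the shRNA and the inhibitor. In 22Rv1 it had 14.3 and 14.4 CPM with shCSN5 and 0.780 and 0.516 CPM with scramble, a rise of 4.47 ± 0.21 on the log2 scale (edgeR adjusted p = 9.2e-08). With CSN5i-3 the same line had 14.9 and 11.1 CPM, against 0.747 and 0.902 CPM with DMSO (3.98 ± 0.26, adjusted p = 0.0006). The effect of the inhibitor minus that of the knockdown was -0.49 ± 0.35 (adjusted p = 0.48).

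In LNCaP, KRT15 stood at 1.28 and 1.54 CPM with shCSN5, from 35 and 43 counts, against 2 counts in each scramble library (4.32 ± 0.41, edgeR adjusted p = 0.00093). With CSN5i-3 it had 18 and 25 counts, against none in either DMSO library, which is at least 14.5-fold higher when 3 counts over the group are set as the floor (adjusted p = 0.0011). C4-2 shCSN5 libraries had 9 and 16 counts and scramble libraries 2 and 1, too few for the test, with a ratio of 8.01 and a 95% exact counting interval from 2.44 to 41.4. Libraries titled C5i had 11 and 9 counts, and those titled NT 5 and 1, again below the filter. Intervals and floors cover counting error alone.

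In PC3 scramble cells already had the gene, and on the 4 libraries of each comparison neither change passed. KRT15 had 14.2 and 16.4 CPM with shCSN5 and 8.83 and 11.8 CPM with scramble (0.57 ± 0.19, edgeR adjusted p = 0.097). The 2 groups do not overlap, and without scramble replicate 2 the difference passed, at 0.73 (adjusted p = 0.0082), while it was 0.38 without scramble replicate 1. It also passed with the spread of all knockdown groups (adjusted p = 0.033) and without the low-count filter (adjusted p = 0.027). With the replicate number as a block it was 0.58 and passed too (adjusted p = 0.0015). With CSN5i-3 it had 25.3 and 26.5 CPM, against 27.5 and 27.3 CPM with DMSO (-0.08 ± 0.052, adjusted p = 0.15). The inhibitor effect minus the knockdown effect in PC3 was -0.59 ± 0.19 (adjusted p = 0.038), a call lost without shCSN5 replicate 2 (-0.47) or without any of the 4 inhibitor libraries (-0.62 to -0.67). The shCSN5 effect in PC3 minus that in LNCaP was -3.82 ± 0.46 (adjusted p = 0.00092), in a test where 24.1% of all genes were called.

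KRT5 and KRT14, the defining pair of basal cells, had few counts throughout. KRT5 had at most 5 counts, in 1 PC3 DMSO library, and at most 3 in any other, in the tables that list it. KRT14 fell with the inhibitor in LNCaP: 5 and 1 counts with CSN5i-3 against 16 and 31 with DMSO (-2.89 ± 0.67, edgeR adjusted p = 0.0093). Without CSN5i-3 replicate 2 that call was lost, at -2.12 (adjusted p = 0.058). In C4-2, libraries titled C5i had 0 and 2 KRT14 counts and those titled NT 10 and 14, a ratio of 0.102 with an exact counting interval from 0.0117 to 0.411 (edgeR adjusted p = 0.0055, 0.064 without titled C5i replicate 1, and 0.056 with DESeq2). With shCSN5 KRT14 had 6 and 10 counts against 11 and 9 in LNCaP, and 8 and 11 against 9 and 12 in C4-2, with overlapping groups in both. In 22Rv1 it had 4 and 4 counts with shCSN5 and 0 and 1 with scramble. About 23.8% of the 50-base windows of the KRT14 transcript also occur in transcripts of other genes, KRT16 foremost, so some of these few counts may belong to a relative.

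KRT17, the keratin of injured epithelium, had no count in any control library but 1, of PC3 DMSO. Libraries of C4-2 titled C5i had 47 and 43 counts, 1.55 and 1.57 CPM, and those titled NT none, which is at least 36.7-fold higher (edgeR adjusted p = 3.1e-06). LNCaP had 8 and 9 counts with CSN5i-3 and none with DMSO, at least 5.72-fold higher but below the filter. In 22Rv1 it had 7 and 1 counts with shCSN5 and 4 and 3 with CSN5i-3, against no count in the 4 control libraries. PC3 had 4 and 2 counts with shCSN5 against none with scramble. With CSN5i-3 it had 6 and 4, against 3 and 0 with DMSO. C4-2 shCSN5 and scramble libraries had no KRT17 count, and LNCaP had 0 and 1 with shCSN5 and none with scramble. At this depth most of these differences could not be tested. About 16% of the KRT17 windows are shared, most often with the pseudogene KRT17P1.

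KRT7, a duct and gland keratin, changed in opposite directions in different lines. In PC3 it rose with shCSN5, to 39.7 and 54.4 CPM against 16.5 and 25.7 CPM with scramble (1.16 ± 0.26, edgeR adjusted p = 0.039), and fell with CSN5i-3, to 9.20 and 10.3 CPM against 47.7 and 46.7 CPM with DMSO (-2.28 ± 0.058, adjusted p = 5.6e-40). The inhibitor effect minus the knockdown effect was -3.38 ± 0.30 (adjusted p = 0.00019; 39.1% of all genes called in this test). The scramble and DMSO levels of PC3 come from separate tables.

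In 22Rv1, KRT7 fell with shCSN5, with 7.46 and 5.53 CPM against 13.2 and 9.73 CPM with scramble (-0.82 ± 0.19, edgeR adjusted p = 0.0055, and 0.14 when the spread was estimated over all knockdown groups). With CSN5i-3 the libraries stood at 45.2 and 25.2 CPM, and with DMSO at 17.3 and 27.8 CPM. The groups overlap and the change of 0.65 ± 0.35 did not pass (adjusted p = 0.23), although it did without CSN5i-3 replicate 2 (0.96, adjusted p = 0.00097) or without DMSO replicate 2 (1.02, adjusted p = 0.039) and without the low-count filter (adjusted p = 0.037). Without CSN5i-3 replicate 1 it was 0.21. The chi-square per gene between replicates was 57.4 with CSN5i-3 and 35.9 with DMSO in this line.

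In scramble and DMSO libraries of LNCaP and scramble libraries of C4-2, KRT7 was nearly silent. LNCaP CSN5i-3 libraries had 153 and 142 counts, 4.0 and 3.36 CPM, and DMSO libraries 2 and 0, a ratio of 149 with an exact counting interval from 40.9 to 1236 (edgeR adjusted p = 2.8e-05). LNCaP shCSN5 libraries had 13 and 56 counts and scramble libraries 4 and 11 (2.29 ± 0.81, adjusted p = 0.072). That change passed without shCSN5 replicate 1 (2.99), scramble replicate 1 (1.68) or scramble replicate 2 (3.24), with DESeq2 (adjusted p = 0.047) and with the spread of all knockdown groups (adjusted p = 0.017). Without shCSN5 replicate 2 it was 0.92 and did not pass, and the shCSN5 libraries differ more from each other than the scramble libraries do. C4-2 shCSN5 libraries had 14 and 11 counts and scramble libraries none, at least 8.01-fold higher (adjusted p = 0.0050); without either shCSN5 library the gene was no longer tested. Libraries titled C5i had 5.88 and 5.63 CPM and those titled NT 0.976 and 0.762 CPM (2.73 ± 0.21, adjusted p = 3.9e-07). In that C4-2 table the antisense gene KRT7-AS had 24 and 19 counts in libraries titled C5i and 4 and 1 in those titled NT. The strand counted is not given, so reads of the 2 genes cannot be told apart.

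KRT75, the hair follicle keratin, rose in LNCaP and C4-2 and fell in PC3. LNCaP CSN5i-3 libraries had 1193 and 1136 counts, 31.2 and 26.9 CPM, against 10 and 14 counts with DMSO, a rise of 6.61 ± 0.18 (edgeR adjusted p = 6e-07). All counts of the CSN5i-3 libraries lie far above those of the DMSO libraries. In C4-2, libraries titled C5i had 408 and 401 counts and those titled NT 0 and 2, a ratio of 495 with an exact counting interval from 137 to 4095 (adjusted p = 1.7e-09).

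With shCSN5, C4-2 had 55 KRT75 counts in each shCSN5 library and 9 and 8 in the scramble libraries (2.62 ± 0.28, edgeR adjusted p = 0.00048). LNCaP had 18 and 35 with shCSN5 and 10 and 16 with scramble (1.14 ± 0.45, adjusted p = 0.097; 1.53 and adjusted p = 0.00057 without shCSN5 replicate 1). Without shCSN5 replicate 2 it was 0.61 and did not pass, and with the spread of all knockdown groups it passed (adjusted p = 0.035). In LNCaP the inhibitor effect minus the knockdown effect was 5.37 ± 0.56 (adjusted p = 0.00071), in a test that called 21.3% of all genes. 22Rv1 had between 1 and 4 KRT75 counts in treated libraries of either experiment and at most 1 in controls.

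In PC3 KRT75 went down. It had 14.3 and 17.7 CPM with shCSN5, against 24.5 and 35.7 CPM with scramble (-0.91 ± 0.22, edgeR adjusted p = 0.047), and 10.6 and 10.4 CPM with CSN5i-3, against 14 and 13 CPM with DMSO (-0.36 ± 0.075, adjusted p = 1.8e-05). The call with shCSN5 was lost without shCSN5 replicate 1 (-0.77, adjusted p = 0.11) and with total counts as the scale (-0.84, adjusted p = 0.051), and the call with CSN5i-3 was lost when the spread was estimated over 22Rv1 and PC3 together (adjusted p = 0.063). The shCSN5 effect in PC3 minus that in LNCaP was -2.11 ± 0.53 (adjusted p = 0.023), a call that was lost in 6 of the 8 fits that leave out 1 library.

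KRT13 and KRT4, the pair of non-keratinising stratified epithelium, were close to 0. KRT13 had 30 and 15 counts in 22Rv1 CSN5i-3 libraries and none with DMSO, at least 15-fold higher (edgeR adjusted p = 0.0092), and 5 and 1 counts with shCSN5 against none with scramble. In PC3 it had 2 and 2 counts with CSN5i-3 and none with DMSO. KRT4 had 3 and 5 counts in PC3 shCSN5 libraries and none with scramble, and at most 3 counts in any library elsewhere.

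KRT18, the type I partner of KRT8 in luminal cells, rose in LNCaP and 22Rv1. With CSN5i-3 it had 1028 and 783 CPM in 22Rv1, against 335 and 399 CPM with DMSO (1.30 ± 0.18, edgeR adjusted p = 0.0047), and 821 and 808 CPM in LNCaP, against 464 and 506 CPM (0.75 ± 0.061, adjusted p = 7.4e-05). With shCSN5 it had 571 and 514 CPM in 22Rv1, against 357 and 315 CPM with scramble (0.69 ± 0.089, adjusted p = 0.00011). LNCaP had 928 and 1033 CPM with shCSN5 and 747 and 737 CPM with scramble (0.40 ± 0.11, adjusted p = 0.036), a call lost without scramble replicate 1 (adjusted p = 0.47) or replicate 2 (adjusted p = 0.49) and with DESeq2 (adjusted p = 0.063).

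C4-2 had 465 and 433 CPM of KRT18 with shCSN5 and 377 and 423 CPM with scramble (0.17 ± 0.097, edgeR adjusted p = 0.23). Libraries titled C5i had 659 and 687 CPM and those titled NT 662 and 618 CPM (0.07 ± 0.064, adjusted p = 0.33), where the sign turned with total counts as the scale (-0.12). In PC3 KRT18 fell slightly with CSN5i-3, to 252 and 259 CPM against 293 and 297 CPM with DMSO (-0.21 ± 0.025, adjusted p = 8.1e-11, and 0.25 with the spread of 22Rv1 and PC3 together). With shCSN5 PC3 had 219 and 250 CPM, against 217 and 282 CPM with scramble (-0.09 ± 0.15, adjusted p = 0.71, and 0.05 without scramble replicate 2). The shCSN5 effect in 22Rv1 minus that in C4-2 was 0.50 ± 0.14 (adjusted p = 0.046), and this call was lost in 6 of the 8 fits without 1 library. About 28.9% of the 50-base windows of the KRT18 transcript occur in other transcripts, KRT18 pseudogenes foremost.

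KRT19, the other luminal keratin, fell with the inhibitor in LNCaP and PC3. In LNCaP it fell with CSN5i-3, to 1.10 and 0.734 CPM against 2.64 and 2.43 CPM with DMSO (-1.47 ± 0.24, edgeR adjusted p = 0.0018), in the same libraries where KRT18 rose. In PC3 it fell to 254 and 265 CPM, against 463 and 467 CPM with DMSO (-0.84 ± 0.025, adjusted p = 7.1e-37, and 0.060 with the spread of 22Rv1 and PC3 together). C4-2 libraries titled C5i had 4.26 and 4.09 CPM and those titled NT 28.0 and 25.6 CPM (-2.68 ± 0.12, adjusted p = 5.3e-09). In 22Rv1 it rose with shCSN5, to 133 and 106 CPM against 83.8 and 66.4 CPM with scramble (0.67 ± 0.12, adjusted p = 0.0013, and 0.091 with the spread of all knockdown groups). With CSN5i-3 22Rv1 had 233 and 122 CPM, against 106 and 169 CPM with DMSO (0.37 ± 0.34, adjusted p = 0.48). These groups overlap, and the change was 0.72 without CSN5i-3 replicate 2 (adjusted p = 0.0014) and -0.12 without replicate 1.

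With shCSN5 in LNCaP, KRT19 had 3.41 and 7.09 CPM against 5.30 and 4.48 CPM with scramble (0.10 ± 0.35, edgeR adjusted p = 0.84). The value depends on which shCSN5 library is kept: it was 0.54 without replicate 1 (adjusted p = 0.00038) and -0.52 without replicate 2 (adjusted p = 0.0055). C4-2 had 10.7 and 9.72 CPM with shCSN5 and 9.73 and 14.1 CPM with scramble (-0.22 ± 0.20, adjusted p = 0.43, and 0.06 without scramble replicate 2). PC3 had 179 and 249 CPM with shCSN5 and 182 and 318 CPM with scramble (-0.22 ± 0.29, adjusted p = 0.63). The PC3 change was -0.56 without scramble replicate 1 and 0.18 without scramble replicate 2. With the replicate number as a block it was -0.19 (edgeR adjusted p = 0.045). In LNCaP the inhibitor effect on KRT19 minus the knockdown effect was -1.66 ± 0.47 (adjusted p = 0.037), a call lost in 6 of the 8 fits without 1 library.

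**Figure D2:**
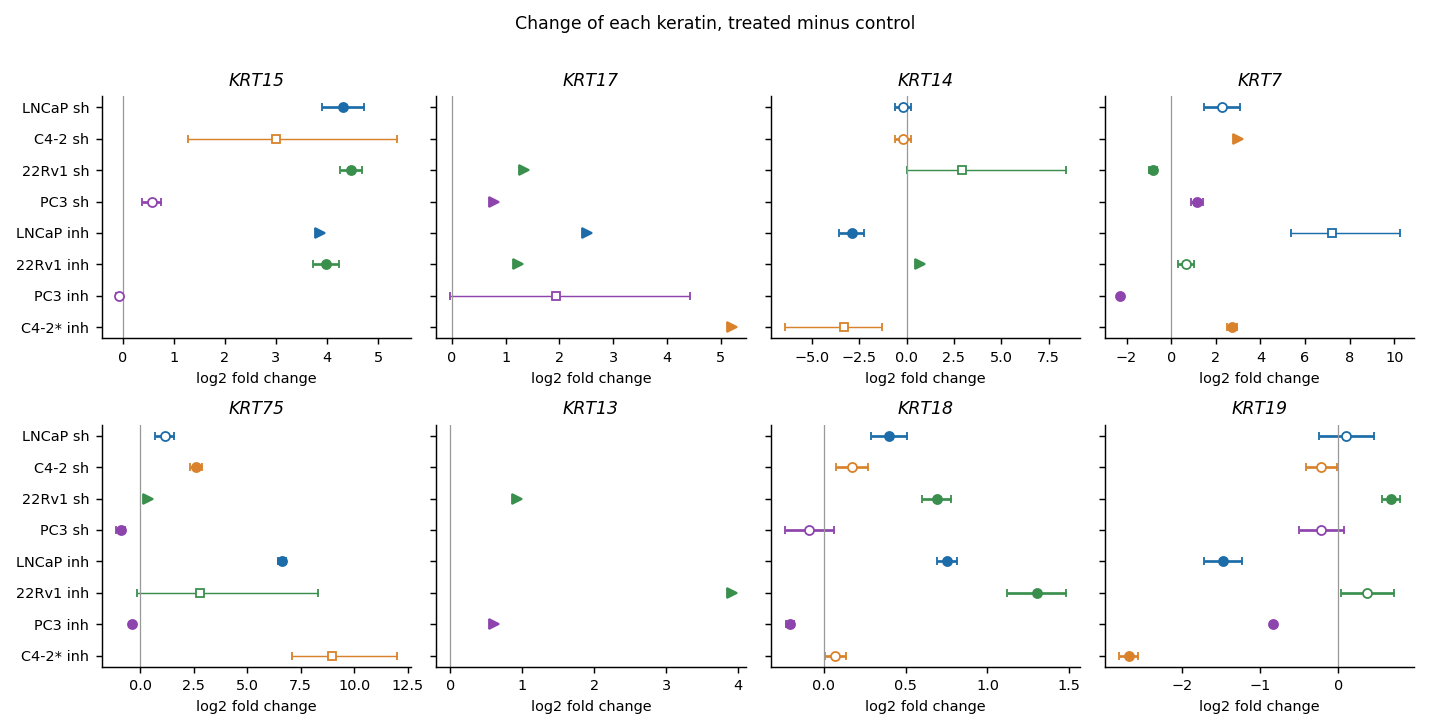
Log2 fold change, treated minus control (C4-2*: titled C5i minus titled NT), of 8 keratins in the 8 comparisons. Circles are edgeR estimates ± SE, filled where the adjusted p was under 0.05; triangles are lower bounds against a group without counts, and open squares ratios with 95% counting intervals against a group of 1 to 3 counts. KRT15 lies at 4.47 with shCSN5 and 3.98 with CSN5i-3 in 22Rv1, against 0.57 and -0.08 in PC3, while KRT18 reaches at most 1.30.

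Set against KRT18 and KRT19 together, the basal keratins stayed a small share in every line. Summed over KRT5, KRT14, KRT15 and KRT17, 22Rv1 shCSN5 libraries had 14.8 and 14.7 CPM, against 0.828 and 0.559 CPM with scramble, while KRT18 and KRT19 together had 703 and 620 CPM, against 441 and 381 CPM. The log2 ratio of the sums, with 0.5 CPM added to each, differed by 3.0 between treated and control. With CSN5i-3 in 22Rv1 the basal sum was 15.2 and 11.2 CPM, against 0.773 and 0.902 CPM with DMSO, and the ratio differed by 2.25. KRT15 made up nearly all of both sums, at 2.51% and 2.79% of KRT18 with shCSN5, against 0.218% and 0.164% with scramble.

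In the other lines the same ratio moved less, but in LNCaP and C4-2 this depends on the 0.5 CPM added. LNCaP scramble libraries, for example, had basal sums of 0.415 and 0.382 CPM. KRT15 alone rose with shCSN5 by 4.32 in LNCaP and by 4.47 in 22Rv1. With shCSN5 the ratio differed by 0.90 in LNCaP, 0.31 in C4-2 and 0.70 in PC3. It differed by 0.48 with CSN5i-3 in PC3, and by 1.38 between C4-2 titled C5i and titled NT. In LNCaP with CSN5i-3 it differed by -0.43, where KRT18 rose. The basal sum there stood at 0.810 and 0.829 CPM, against 0.406 and 0.739 CPM with DMSO. These sums are close to the 0.5 CPM added to each, so the difference depends on that amount. The sum also joins opposite changes. KRT14 had 5 and 1 counts against 16 and 31 with DMSO. KRT15 had 18 and 25 and KRT17 8 and 9, against none with DMSO. In PC3 with CSN5i-3 the basal sum was 25.5 and 26.7 CPM, against 27.6 and 27.5 CPM with DMSO, and the luminal sum 505 and 524 CPM, against 757 and 764 CPM. Against KRT19 alone, which is low in LNCaP and C4-2, the shares were larger. KRT15 was 42.9% and 80.6% of KRT19 in LNCaP CSN5i-3 libraries, against 0% with DMSO, and 37.6% and 21.7% in LNCaP shCSN5 libraries, against 1.20% and 1.55% with scramble. KRT17 was 36.4% and 38.4% of KRT19 in C4-2 libraries titled C5i, against 0% in those titled NT. No test was made of these sums and shares.

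**Figure D3:**
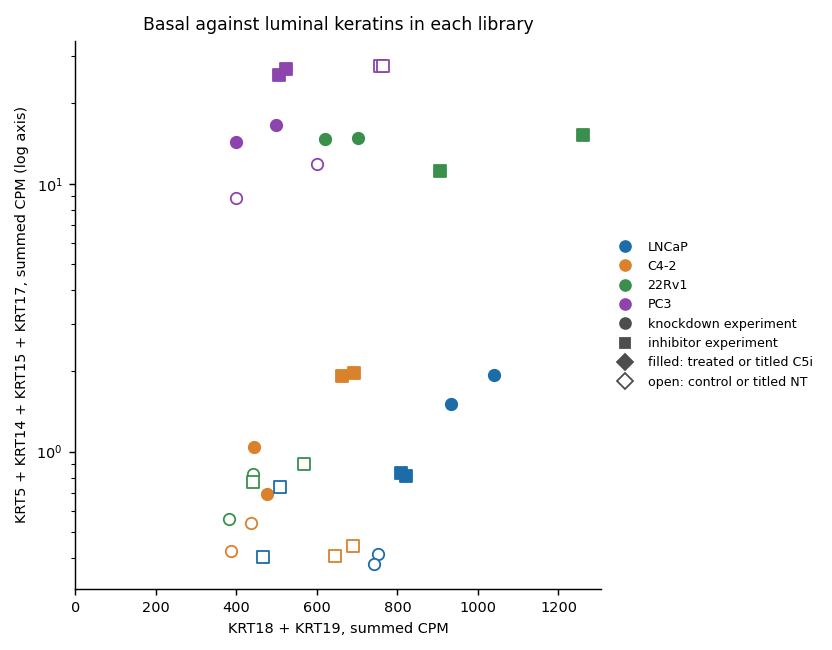
Summed CPM of KRT5, KRT14, KRT15 and KRT17 (log axis) against the summed CPM of KRT18 and KRT19 in each of the 32 libraries. Filled symbols are treated or titled C5i, open ones control or titled NT, circles the knockdown and squares the inhibitor experiment. Filled 22Rv1 symbols stand between 11.2 and 15.2 CPM on the basal axis, beside PC3 libraries of both kinds, and open 22Rv1 symbols below 1 CPM.

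Other keratins changed too. KRT8, the partner of KRT18, rose with shCSN5 in LNCaP (0.97 ± 0.21, edgeR adjusted p = 0.015), C4-2 (0.59 ± 0.14, adjusted p = 0.017, and adjusted p = 0.12 without scramble replicate 1) and 22Rv1 (1.12 ± 0.10, adjusted p = 9.1e-06), and with CSN5i-3 in LNCaP (1.32 ± 0.099, adjusted p = 4.7e-05) and 22Rv1 (1.76 ± 0.28, adjusted p = 0.0074). In each of these its estimate was above that of KRT18, a difference between genes that was not tested. KRT80, a type II keratin of differentiating epithelia, had 204 and 203 CPM in LNCaP CSN5i-3 libraries and 3.58 and 4.96 CPM with DMSO (5.57 ± 0.14, adjusted p = 5.3e-07). Libraries of C4-2 titled C5i had 166 and 172 CPM of KRT80 and those titled NT 3.87 and 3.70 CPM. In PC3 with CSN5i-3 KRT80 fell to 2.07 and 2.61 CPM, against 14.3 CPM in both DMSO libraries (-2.62 ± 0.10, adjusted p = 1.6e-30), where KRT7 and KRT75 also fell. KRT81 fell in the same PC3 comparison, to 435 and 458 CPM against 1198 and 1243 CPM (-1.45 ± 0.024, edgeR adjusted p = 1.9e-49). With shCSN5 in PC3 KRT81 was not called (0.33 ± 0.26, adjusted p = 0.41). With CSN5i-3 it rose in 22Rv1 (3.91 ± 0.48, adjusted p = 0.0029) and in LNCaP, with 57 and 59 counts against none. KRT20, a type I keratin of intestinal epithelium, rose with shCSN5 in LNCaP (3.45 ± 0.25, adjusted p = 0.00038) and PC3 (2.70 ± 0.23, adjusted p = 0.0046). With CSN5i-3 it rose in LNCaP (2.34 ± 0.28, adjusted p = 0.00049) and fell in PC3 (-1.21 ± 0.30, adjusted p = 0.00028).

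**Figure D4:**
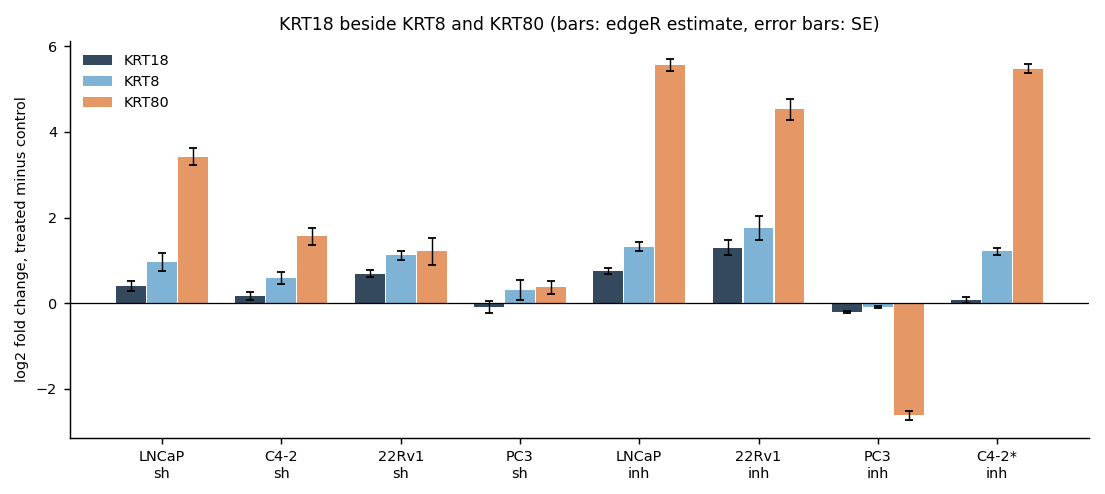
Log2 fold change, treated minus control (C4-2*: titled C5i minus titled NT), of KRT18, its partner KRT8, and KRT80 in the 8 comparisons; bars are edgeR estimates, error bars SE, 2 libraries a group. KRT80 reaches 5.57 in LNCaP with CSN5i-3 and -2.62 in PC3 with CSN5i-3.

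Of 22 other keratins, KRT8, KRT20 and KRT80 among them, 4 of 6 tested were higher with shCSN5 in LNCaP (median 1.6, against -0.01 over all genes, of which 18.3% were higher), 3 of 4 in C4-2 (1.07, against -0.02 and 15.7%), 4 of 4 in 22Rv1 (1.17, against 0.02 and 22.6%) and 1 of 7 in PC3 (0.33, against 0.04 and 10.3%), none being lower. With CSN5i-3, 7 of 8 were higher in LNCaP (2.45, against 0.00 and 26.2%) and 3 of 4 in 22Rv1 (2.84, against -0.04 and 11.8%), while in PC3 1 was higher and 6 of 8 were lower (-1.19, against -0.01 and 38.5% of all genes lower). In C4-2, 3 of 6 were higher and 2 lower in libraries titled C5i (0.69, against -0.01, with 74.9% of all genes called). Some genes with hardly a count in controls entered this list and those below through their treated libraries. KRT16, for example, had 29 counts with shCSN5 in 22Rv1 and none with scramble. The lists were also chosen with earlier results of these data known. Their counts and medians therefore describe the tested genes and do not test a list.

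Basal markers that are not keratins changed in both directions. Of 11 such genes, 3 of 7 tested were higher with shCSN5 in LNCaP (18.3% of all genes higher, list median 0.62), 4 of 6 in C4-2 (15.7%, 1.66) with 1 lower, 5 of 8 in 22Rv1 (22.6%, 1.26) with 1 lower, and 3 of 9 in PC3 (10.3%, -0.13) with 1 lower. With CSN5i-3, 7 of 7 were higher in LNCaP (26.2% of all genes higher, list median 1.93) and 4 of 8 in 22Rv1 (11.8%, 1.26). In PC3 with CSN5i-3 1 was higher and 6 of 8 were lower (38.5% of all genes lower, list median -0.83). In C4-2 titled C5i 7 of 8 were higher (37.0%, 1.94). The median of all genes lay between -0.04 and 0.04 in these 8 comparisons. In 22Rv1, TRIM29, a basal-cell protein of the TRIM family, rose by 4.95 ± 0.28 with shCSN5 (edgeR adjusted p = 3.7e-07) and by 5.76 ± 0.35 with CSN5i-3 (adjusted p = 0.00054), and SERPINB5, the serpin maspin, by 3.62 ± 0.16 and 4.26 ± 0.23. SNAI2, a transcription factor of basal and mesenchymal cells, fell with shCSN5 in C4-2 (-1.80 ± 0.16, adjusted p = 0.00025). It also fell with shCSN5 in 22Rv1 (-1.89 ± 0.44, edgeR adjusted p = 0.0051, and 0.12 with DESeq2).

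Genes that anchor keratins to junctions gave a mixed picture. Of 18 genes, with shCSN5 13 of 17 tested were higher and none lower in 22Rv1 (43.9% of all genes called, list median 0.62), 7 were higher and 4 lower of 17 in C4-2 (32.0%, -0.01), 3 higher and 2 lower of 16 in LNCaP (35.7%, 0.03), and 1 higher and 1 lower of 15 in PC3 (16.7%, -0.07). With CSN5i-3 7 were higher and 2 lower of 15 in LNCaP (52.6% of all genes called, list median 0.20), 5 higher and none lower of 15 in 22Rv1 (24%, 0.54), and 7 higher and 8 lower of 15 in PC3 (77.1%, -0.40). In C4-2, 6 of 16 were higher and 5 lower in libraries titled C5i (74.9%, -0.03). COL17A1, the hemidesmosome collagen of basal cells, rose in 22Rv1 by 5.34 ± 0.33 with shCSN5 (edgeR adjusted p = 5.9e-07) and by 5.41 ± 0.43 with CSN5i-3 (adjusted p = 0.00098). In PC3 with CSN5i-3 PKP1, a desmosomal plaque protein, fell by 1.02 ± 0.023 on the log2 scale (adjusted p = 2.3e-42), and DSP, desmoplakin, rose by 1.17 ± 0.030.

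Of 16 squamous differentiation genes, 3 of 6 tested were higher with shCSN5 in LNCaP (18.3% of all genes higher, list median 0.72), 1 of 4 in C4-2 (15.7%, 0.38), 3 of 5 in 22Rv1 (22.6%, 0.75) and 2 of 5 in PC3 (10.3%, 0.16), none being lower. With CSN5i-3, 5 of 7 were higher and 1 lower in LNCaP (52.6% of all genes called, list median 1.57), 3 of 6 were higher in 22Rv1 (11.8% of all genes higher, list median 2.11, or 1.97 with genes of a group at 0 set to their bound), and 3 of 4 were lower in PC3 (38.5% of all genes lower, list median -0.57). In C4-2 titled C5i 4 of 6 were higher and 1 lower (74.9% of all genes called, list median 2.18). IVL, the cornified envelope protein involucrin, rose in LNCaP by 2.84 ± 0.24 with shCSN5 (edgeR adjusted p = 0.00061) and by 4.72 ± 0.37 with CSN5i-3 (adjusted p = 6.1e-05). Of 15 epithelial transcription factors, 9 of 13 were higher with shCSN5 in LNCaP (18.3% of all genes higher, list median 1.41), 5 of 12 in C4-2 (15.7%, 0.32), 10 of 13 in 22Rv1 (22.6%, 1.13) with 1 lower, and 6 of 10 in PC3 (10.3%, 0.79) with 1 lower. With CSN5i-3 10 of 14 were higher and 4 lower in LNCaP (52.6% of all genes called, list median 1.02), 9 of 14 higher in 22Rv1 (11.8% of all genes higher, list median 1.45), and 6 of 10 higher and 4 lower in PC3 (77.1% of all genes called, list median 0.51). In C4-2 titled C5i 9 of 13 were higher and 4 lower (74.9%, 0.72). ELF3, an epithelial ETS factor, rose with shCSN5 in LNCaP by 2.42 ± 0.17 (adjusted p = 0.00034), in C4-2 by 2.10 ± 0.15 (adjusted p = 0.0001), in 22Rv1 by 2.50 ± 0.090 (adjusted p = 2.3e-08) and in PC3 by 2.75 ± 0.19 (adjusted p = 0.0031).

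Luminal prostate markers changed unevenly. In LNCaP scramble libraries the 8 markers summed to 7593 and 7687 CPM. PC3 scramble libraries also had some, 392 and 532 CPM in sum, HOXB13 making up 276 and 359 CPM. Of 8 markers beside KRT18 and KRT19, with KRT8 counted here again, 1 of 8 was higher and 7 lower in LNCaP with CSN5i-3 (median -1.57, against 0.00 over all genes, 52.6% called), and 2 were higher and 6 lower in C4-2 titled C5i (-1.95, against -0.01, 74.9% called). With shCSN5 2 were higher and 3 lower of 8 in LNCaP (35.7% of all genes called, list median -0.30) and in C4-2 (32.0%, -0.05), 4 higher and 3 lower of 8 in 22Rv1 (43.9%, 0.13), and 1 higher and 1 lower of 5 in PC3 (16.7%, 0.27). With CSN5i-3 3 were higher and 2 lower of 8 in 22Rv1 (24%, 0.28), and 3 of 5 lower in PC3 (38.5% of all genes lower, list median -0.56).

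Markers of other cells were low, and some moved with treatment. The 6 leukocyte markers summed to 25.3 and 24.9 CPM in LNCaP CSN5i-3 libraries, against 0.356 and 0.477 CPM with DMSO, and CD68, a lysosomal protein of macrophages, accounted for most of it (6.26 ± 0.15, edgeR adjusted p = 5e-07). Of the 6, 3 are in that table and 2 were called higher. In C4-2 the sum was 51.5 and 53.0 CPM in libraries titled C5i and 15.3 and 15 CPM in those titled NT, CD68 being higher and LYZ lower. In the other 6 comparisons the leukocyte sum was 1.0 to 5.28 CPM in treated and 0.255 to 2.38 CPM in control libraries, with 1 or 2 markers called higher in each. CD3E, a T cell marker, was at 0 in the 4 knockdown libraries of LNCaP, in the 4 of 22Rv1 and in the 4 inhibitor libraries of 22Rv1. The 6 fibroblast markers summed to at most 58.7 CPM, in PC3 DMSO, against 15 and 14.5 CPM with CSN5i-3. The endothelial markers summed to at most 13.6 CPM, in LNCaP scramble, against 5.02 and 7.13 CPM with shCSN5. Their part in the keratin changes was not tested.

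Across the 7 comparisons with settled labels, 3 of the keratins were tested in all: KRT7, KRT18 and KRT19. The log2 changes of KRT18 were most like those of KRT8P3, a KRT8 pseudogene (Pearson r = 0.99), KRT8 (0.98) and CEACAM1, an epithelial adhesion molecule (0.97), among 12275 genes compared. Reads of KRT8 and its pseudogene may not be separable, so the first 2 are not independent. The changes of KRT19 were most like those of EFNB3, SIDT1 and HSD17B12, each at 0.98. Those of KRT7 were most like those of DGKD (0.98), SAE1 and CCDC142 (both 0.96). Among the keratins themselves the values were 0.15 for KRT7 with KRT18, 0.32 for KRT18 with KRT19 and -0.44 for KRT7 with KRT19. The KRT7 changes used include 6.63 with shCSN5 in C4-2, where scramble libraries had no count. They also include 7.05 with CSN5i-3 in LNCaP, where DMSO libraries had 2 and 0 counts. The size of such changes depends on the small count that edgeR adds, and they enter every KRT7 correlation. With 7 points, several of them from the same lines, these correlations are a description.

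Whether the keratins answered shCSN5 alike in the 4 lines was tested in all 16 knockdown libraries. Of 6 keratins tested, 4 differed among lines, where 38.8% of all genes did: KRT15 (edgeR adjusted p = 2.8e-06), KRT75 (0.00023), KRT7 (0.0063) and KRT18 (0.011). KRT19 (0.23) and KRT14 (0.14) did not pass. For KRT15, KRT75, KRT7 and KRT14 at least 1 scramble group was at or under the floor of 3 counts. The size of their differences depends on the small count that edgeR adds and is not given. The 4 lines come from separate tables, so line is confounded in part with table in this test. At the shared dose of 5 µM CSN5i-3, the KRT7 effect differed between LNCaP and 22Rv1 (adjusted p = 0.0042, with 15.6% of all genes called). The other 5 keratins tested did not pass. The inhibitor libraries of LNCaP and 22Rv1 come from separate tables, so line cannot be told apart from table here. For 22Rv1 against C4-2 with shCSN5, 13.3% of all genes were called, KRT7 among them (adjusted p = 0.0058). Between inhibitor and knockdown in 22Rv1, edgeR called none of 5 keratins, where it called 4.28% of all genes and 3471 genes had an unadjusted p under 0.05. The smallest adjusted p among them was 0.15, for KRT7 (1.46 ± 0.48), and without the low-count filter 2 were called.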

How the data were processed

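RNA was extracted with a Direct-Zol kit, per the labels' protocols. The deposited values are raw counts per gene, made with Partek Flow per the submitters' processing notes. The sources used here give no aligner, annotation, genome build or strand. Counts were tested with edgeR 4.0.16 (R 4.3.3): TMM factors, the filterByExpr filter (minimum count 10), a quasi-likelihood F test on the 4 libraries of a comparison (2 residual degrees of freedom), and Benjamini-Hochberg adjustment over all genes, called at an adjusted p under 0.05. The SE is the log2 change divided by the root of F. Levels are CPM on the totals scaled within each comparison of treated and control libraries. Differences between effects were fitted as interactions. Against a group without counts a fold is a lower bound, with 3 counts over the group as floor. Against a group of 1 to 3 counts it is the ratio of the counts per scaled total, with a 95% exact interval. Code was tested on simulated data. Alternatives were DESeq2 1.42.0, total counts, no filter, a spread shared by all knockdown groups or by 22Rv1 and PC3 inhibitor groups, a pseudocount of 1 CPM for the basal and luminal sums, leaving out each library, and a replicate block. The keratins and gene lists were chosen with earlier results of these data known. From each list, at most 2 higher and 2 lower genes with the smallest adjusted p of a comparison could be named. Genes most alike were the 3 with the highest Pearson correlation. Promoter windows are the 250 bases before the start, shorter than first planned. Same-numbered libraries of 2 groups did not deviate together throughout (correlations of -0.64 to 0.54), so the numbers were not taken to pair them. The highest correlation, 0.54, was that of shCSN5 and scramble in PC3.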

Additional observations from a re-analysis of the deposited data

Results flagged for a closer look

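Each result here was picked out because an effect differed between lines or between experiments by a test of the difference itself (edgeR interaction, adjusted over all genes). The effect of shCSN5 differed among the 4 lines for KRT15 (adjusted p = 2.8e-06), KRT75 (0.00023), KRT7 (0.0063) and KRT18 (0.011). Line is confounded in part with table there, and KRT15, KRT75 and KRT7 each had a scramble group at or under 3 counts. PC3 minus LNCaP was -3.82 for KRT15 and -2.11 for KRT75 on the log2 scale. 22Rv1 minus C4-2 was 0.50 for KRT18, and for KRT7, where C4-2 scramble libraries had no count, the adjusted p was 0.0058. The inhibitor effect minus the knockdown effect in LNCaP was 5.37 for KRT75 and -1.66 for KRT19. In PC3 it was -3.38 for KRT7 and -0.59 for KRT15. Of these calls, those at -2.11, 0.50, -1.66 and -0.59 were each lost in most fits that leave out a library. The share of all genes called in each test is given above. At 5 µM CSN5i-3 the KRT7 effect differed between LNCaP and 22Rv1 (adjusted p = 0.0042), where LNCaP DMSO libraries had 2 and 0 counts. The libraries of LNCaP and 22Rv1 in that test come from separate tables. Inhibitor and knockdown libraries also differ in table, control and depth, which cannot be told apart from the experiment.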

How the results depend on the processing

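Of 938 values of single keratins under one alternative each, 834 kept their direction and side of the threshold, 47 passed newly, 40 no longer passed and 17 changed sign. Of 1495 for the other named genes, 1428 kept both, 4 passed newly, 63 no longer passed and none changed sign. The number of keratins called, 2 with shCSN5 in LNCaP, was 1 without the filter and 4 with shared spread. In C4-2 it was 1 with DESeq2 (2 before), in 22Rv1 2 with shared spread (4 before), and in PC3 1 with total counts (2 before). With CSN5i-3 in PC3 it was 1 with shared spread (4 before). The inhibitor effect minus the knockdown effect gave 1 in LNCaP with total counts (2 before), and without the filter 2 in 22Rv1 (0 before) and 4 in PC3 (2 before). At 5 µM total counts gave 3 (1 before). With 1 CPM added, the basal to luminal difference was 0.56 in LNCaP and 2.53 in 22Rv1 with shCSN5, 1.85 in 22Rv1 with CSN5i-3 and 1.02 in C4-2 as titled. KRT18 in C4-2 as titled turned to -0.12 with total counts.

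Leaving out 1 library gave 2 to 5 keratins called with shCSN5 in LNCaP, 1 to 2 in C4-2, 1 to 3 in PC3 and 3 to 5 with CSN5i-3 in 22Rv1. It gave 1 to 2 for PC3 minus LNCaP, 1 to 3 for 22Rv1 minus C4-2, 1 to 4 for inhibitor minus knockdown in LNCaP, 1 to 3 in PC3 and 1 to 3 at 5 µM. Sign changes, none of a called value, were seen with shCSN5 for KRT14 in C4-2 (-0.47 to 0.07) and LNCaP (-0.59 to 0.11), for KRT18 in PC3 (-0.26 to 0.05), and for KRT19 in C4-2 (-0.47 to 0.06), LNCaP (-0.52 to 0.54) and PC3 (-0.56 to 0.18). With CSN5i-3, KRT19 in 22Rv1 ran from -0.12 to 0.74. Among differences, KRT18 inhibitor minus knockdown in PC3 ran from -0.22 to 0.06, KRT19 in 22Rv1 from -0.79 to 0.08, and PC3 minus LNCaP from -0.84 to 0.25 for KRT19 and from -2.15 to 0.19 for KRT7. A group left with 1 library is assumed to vary like the other. The causes were not tested.

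With the replicate number as a block, 4 keratins were called with shCSN5 in PC3, 4 for PC3 minus LNCaP, 1 for 22Rv1 minus C4-2 and 4 for inhibitor minus knockdown in PC3 (each 2 before). KRT15 with shCSN5 in PC3 passed with the block (0.58, adjusted p = 0.0015), as did KRT7 in LNCaP (2.23, adjusted p = 1.6e-05). With crossed numbers, a pairing chosen after seeing the data, 5 were called with CSN5i-3 in 22Rv1 (3 before). Genes called with the block numbered 8180 with shCSN5 in PC3 (2578 before), 1237 for 22Rv1 minus C4-2 (2262 before), 19 for inhibitor minus knockdown in 22Rv1 (730 before), 10073 in PC3 (6560 before) and 815 at 5 µM (2887 before). Crossed numbers gave 7890 with shCSN5 in C4-2 and 10422 with CSN5i-3 in 22Rv1. Without the filter 4273 genes were called with shCSN5 in PC3, 3139 in C4-2 (4754 before) and 2028 for inhibitor minus knockdown in 22Rv1. Shared spread gave 4304 with shCSN5 in PC3 and 6882 with CSN5i-3 in 22Rv1 (4010 before). Total counts moved the median of all genes to -0.20 in C4-2 as titled (4494 higher and 6805 lower, against 5535 and 5679), to 0.11 with shCSN5 in PC3 (1969 and 703, against 1586 and 992) and to -0.10 with CSN5i-3 in LNCaP (3893 and 5885, against 4772 and 4826). Genes with few counts, KRT4, KRT5, KRT13 and KRT17 among them, are limited by depth.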
